A study of Mus musculus with 131 samples.

Results

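The windows described here are 200 bp stretches of the mouse autosomes that were methylated in mouse embryonic fibroblasts (MEFs) and almost free of methylation in both of the embryonic stem cell (ESC) lines measured. They were chosen by their measured methylation level, at 80% or more in the MEFs and 10% or less in both ESC lines, among windows with a value in all 3 libraries. The rule picked 23862 of 7409496 windows (0.322%), or 0.517% of the 4611845 windows at 80% or more in the MEFs. The opposite pattern, 10% or less in the MEFs and 80% or more in both ESC lines, was held by 28 windows.

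The methylation libraries came from wild-type MEFs at passage 2, from ESCs carrying the 35delG change of Gjb2 at passage 7 (Gjb2-35delG ESCs) and from ESCs carrying an Actin-RFP transgene at passage 10 (Actin-RFP ESCs). All were cultured cells of the C57BL/6J strain, with 1 library for each, so no test between cell types was possible, and genotype and passage cannot be told apart between the ESC lines. Expression came from 55 RFP-positive (ESC-derived) and 40 GFP-positive (host-derived) single cells of E4.0 blastocysts, which had been reconstructed by injecting Actin-RFP ESCs into Actin-GFP host embryos. Because the cells of a colour were not tied to separate embryos in the labels used here, each colour was treated as 1 sample and its differences are given with no test.

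DNA methylation in mammals is placed mainly on the cytosine of CpG pairs, and most CpGs outside CpG islands are methylated in differentiated cells. Promoters rich in CpGs are usually unmethylated in every cell type, whereas enhancers and CpG-poor promoters lose methylation in the cell types that use them, where bound transcription factors and TET enzymes keep the level low. In mouse ESCs such sites are known around genes of the pluripotency network, among them Pou5f1, Nanog and the genes of the Mir290 and Mir302 microRNA clusters.

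The sequences below show what such windows look like at gene starts. Each is the stretch of a RefSeq promoter (GRCm38.p6) that lies upstream of the start and touches windows chosen by the rule, written 5′ to 3′ on the strand of the gene, with CpGs in capitals. Tcl1 (chr12:105222738-105222987, minus strand) encodes an AKT co-activator, Lrrc2 (chr9:110951295-110951544, plus strand) lies beside the Nodal co-receptor gene Tdgf1, and Triml2 (chr8:43180286-43180535, plus strand) encodes a tripartite motif-like protein. Platr20 (chr11:51220419-51220668, minus strand) and Platr6 (chr10:21846034-21846283, minus strand) are long non-coding RNAs named for their link to pluripotency. Gm38457 (chr5:64809181-64809430, minus strand) is a predicted non-coding gene that lies in a run of chosen windows at Klf3. Zdbf2 (chr1:63200108-63200357, plus strand) is an imprinted gene, and Hsf2bp (chr17:32034509-32034600, minus strand) encodes a meiotic recombination factor.
Tcl1: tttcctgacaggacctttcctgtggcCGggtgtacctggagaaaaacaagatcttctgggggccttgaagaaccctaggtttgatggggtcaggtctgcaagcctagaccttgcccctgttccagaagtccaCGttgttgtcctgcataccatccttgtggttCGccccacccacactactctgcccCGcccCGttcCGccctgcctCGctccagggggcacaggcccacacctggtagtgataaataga
Lrrc2: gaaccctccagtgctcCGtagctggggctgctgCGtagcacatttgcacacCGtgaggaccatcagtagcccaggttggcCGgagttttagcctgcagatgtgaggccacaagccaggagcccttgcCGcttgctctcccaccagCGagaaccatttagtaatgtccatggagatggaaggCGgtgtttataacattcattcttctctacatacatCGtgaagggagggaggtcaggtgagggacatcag
Triml2: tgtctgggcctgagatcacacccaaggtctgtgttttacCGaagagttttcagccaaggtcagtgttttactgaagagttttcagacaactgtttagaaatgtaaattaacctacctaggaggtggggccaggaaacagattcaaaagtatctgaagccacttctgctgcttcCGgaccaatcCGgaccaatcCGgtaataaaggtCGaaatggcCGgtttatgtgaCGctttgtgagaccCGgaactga
Platr20: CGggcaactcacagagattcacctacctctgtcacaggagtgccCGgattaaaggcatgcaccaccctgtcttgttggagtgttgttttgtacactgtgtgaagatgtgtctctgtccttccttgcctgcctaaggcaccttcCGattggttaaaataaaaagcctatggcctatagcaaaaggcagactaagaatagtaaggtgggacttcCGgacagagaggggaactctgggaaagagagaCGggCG
Platr6: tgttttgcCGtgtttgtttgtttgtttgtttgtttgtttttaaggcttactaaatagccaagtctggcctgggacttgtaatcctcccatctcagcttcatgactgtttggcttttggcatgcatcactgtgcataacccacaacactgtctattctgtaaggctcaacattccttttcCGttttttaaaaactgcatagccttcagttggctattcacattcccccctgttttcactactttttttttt
Gm38457: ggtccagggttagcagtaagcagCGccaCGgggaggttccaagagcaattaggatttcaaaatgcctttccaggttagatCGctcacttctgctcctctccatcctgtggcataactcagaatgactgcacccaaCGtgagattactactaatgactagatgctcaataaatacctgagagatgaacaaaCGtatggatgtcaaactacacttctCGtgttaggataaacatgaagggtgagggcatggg
Zdbf2: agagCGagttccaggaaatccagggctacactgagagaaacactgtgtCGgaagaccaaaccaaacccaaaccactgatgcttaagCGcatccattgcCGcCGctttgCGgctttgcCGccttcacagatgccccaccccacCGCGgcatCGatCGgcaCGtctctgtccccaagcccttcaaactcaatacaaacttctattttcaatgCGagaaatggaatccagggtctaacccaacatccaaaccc
Hsf2bp: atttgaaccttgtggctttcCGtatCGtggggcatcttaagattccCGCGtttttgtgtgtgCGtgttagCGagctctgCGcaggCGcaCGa

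The stretches hold from 2 CpGs (Platr6) to 13 (Zdbf2), and the 92 bases at Hsf2bp alone hold 9. Over the windows that each stretch touches, the level in the MEFs was 86.1% at Tcl1, 90.2% at Lrrc2, 88.5% at Triml2, 92.1% at Platr20, 96.7% at Platr6, 92.4% at Gm38457, 97.3% at Zdbf2 and 86.9% at Hsf2bp. In the Gjb2-35delG ESCs the same windows ran from 1.32% at Zdbf2 to 6.09% at Hsf2bp. In the Actin-RFP ESCs they ran from 0.893% at Triml2 to 8.53% at Hsf2bp. The Hsf2bp value rests on 332 calls in the MEFs, 269 in the Gjb2-35delG ESCs and 391 in the Actin-RFP ESCs.

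Both microRNA clusters typical of ESCs also held chosen windows. Several of their mature products share much of the seed, the stretch that pairs with target RNAs. The mature sequences are given with the seed (bases 2 to 8) in capitals, from RefSeq. The first 4 share the seed AAGUGCU. Other products of the clusters do not, such as miR-367-3p (AUUGCAC) and miR-293-3p (GUGCCGC, not printed).
mmu-miR-302b-3p: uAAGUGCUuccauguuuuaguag
mmu-miR-302d-3p: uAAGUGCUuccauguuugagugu
mmu-miR-294-3p: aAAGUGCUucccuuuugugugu
mmu-miR-295-3p: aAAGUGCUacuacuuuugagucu
mmu-miR-291b-3p: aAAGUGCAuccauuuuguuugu
mmu-miR-302c-3p: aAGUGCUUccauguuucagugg
mmu-miR-367-3p: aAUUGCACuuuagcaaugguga

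Mature miR-302b-3p is encoded at chr3:127545275-127545297 and miR-302d-3p at chr3:127545665-127545687, both on the plus strand. On chromosome 3 the window chr3:127544601-127544800 had a level of 88.2% in the MEFs and 0% in both ESC lines, from 17, 18 and 16 calls, so that levels of up to 16.7% and 18.8% are allowed by 0 methylated calls (3 calls of the total). A further window at chr3:127545601-127545800, over the miR-302d-3p sequence, had 81.2% in the MEFs, 0% in the Gjb2-35delG ESCs and 10% in the Actin-RFP ESCs, from 26, 19 and 22 calls. The Mir302 windows thus rest on few calls, and the latter lies at the limit of the rule.

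Mature miR-294-3p (chr7:3220691-3220712) and miR-295-3p (chr7:3220815-3220837) lie on the plus strand of chromosome 7, and 4 chosen windows between 3220001 and 3221200 lay within 1 kb of the Mir295 hairpin. Their mean level was 90.4% in the MEFs, 0.575% in the Gjb2-35delG ESCs and 3.12% in the Actin-RFP ESCs. The best covered, chr7:3220401-3220600, had 91.3%, 2.30% and 2.56% from 73, 80 and 82 calls. Much of the surroundings was less methylated in the MEFs. The 37 windows within 6 kb of the Mir295 hairpin that were not chosen averaged 58.8%, 21.1% and 12.4%. Of these, 33 were below 80% in the MEFs. Over all autosomal hairpins in RefSeq, 39 of 919 (4.24%) had a chosen window within 1 kb, the Mir290 and Mir302 clusters supplying 11 of them. These 11 are not separate cases, because the hairpins of a cluster share windows. The hairpins of the Mir302 cluster all count the same 2 windows, and those of the Mir290 cluster count from 2 to all 4 of the windows above. MicroRNA expression was not measured.

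The 3 libraries held from 287946900 to 319285707 methylation calls, with a median of 25 to 27 calls per window. Over all windows in common the mean level was 79.1% in the MEFs, 67.6% in the Gjb2-35delG ESCs and 38.5% in the Actin-RFP ESCs, so the ESC lines stood apart from each other. The single cells held 518064 to 9562072 reads in RFP cells and 1996187 to 8315062 in GFP cells. The colours also differed in lineage markers. The summed level of 8 epiblast markers was 2432 CPM (reads scaled to a common total per library) in RFP cells (lowest cell 4.03, median 2412, highest 5939) and 68.8 in GFP cells (median 19.6, highest 1719), while trophectoderm markers summed to 168 CPM and 7829 CPM. Of the 8 trophectoderm markers, Cdx2, Elf5, Tfap2c and Dsp were under 1 CPM in the summed RFP cells and 2 reached 10 CPM. Their sum had a median of 47.8 CPM over RFP cells and was 3574 CPM in the highest. Primitive endoderm markers summed to 14.6 CPM in RFP cells and 496 CPM in GFP cells. ESC origin and epiblast lineage therefore cannot be told apart in the comparison of the colours.

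Within the chosen windows, the level in the MEFs had a median of 89.2% and quartiles of 84.6% and 93.8%. The median was 4.70% in the Gjb2-35delG ESCs (quartiles 1.56% and 7.25%) and 4.09% in the Actin-RFP ESCs (1.34% and 6.46%). No methylated call at all was seen in 5492 windows in the Gjb2-35delG ESCs and in 5478 in the Actin-RFP ESCs, and 2286 windows (9.58%) had none in both. These levels describe what the rule selected on. For scale, windows at 80% or more in the MEFs averaged 72.5% in the Gjb2-35delG ESCs and 43.3% in the Actin-RFP ESCs.

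The lines contributed unequally to the choice. Of the windows at 80% or more in the MEFs, 32098 were at 10% or less in the Gjb2-35delG ESCs and 74.3% of these were also that low in the Actin-RFP ESCs. The Actin-RFP ESCs had 179976 such windows, of which 13.3% were low in the Gjb2-35delG ESCs too. Most windows that the Actin-RFP line alone would have supplied were thus dropped by the more methylated line.

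The median number of calls in a chosen window was 36 in the MEFs, 36 in the Gjb2-35delG ESCs and 41 in the Actin-RFP ESCs, and 3.79% to 5.62% of the windows had fewer than 10 calls in a given library. The exact (Clopper-Pearson) 95% interval of the MEF level lay above both ESC intervals in 98.2% of the windows. The same calls had chosen the windows, so this share describes the choice and does not test it. These intervals treat the calls as independent and cover counting error only. The median upper limit for the higher of the ESC levels was 19.9%, so a single window at this depth does not set the ESC level below 10%. The limits of the rule cut through a continuous range: 2818 windows lay between 80% and 82% in the MEFs and 2031 more, otherwise alike, lay between 78% and 80%. At the other limit, 6974 windows had their higher ESC level between 8% and 10% and 5557 lay just outside, between 10% and 12%.

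The chosen windows held more CpG cytosines than their background. The cytosines of the 2 strands of a CpG are counted apart. Their median number was 4 in the chosen windows, in the windows at 80% or more in the MEFs and in all windows. The mean was 5.82 in the chosen windows against 4.55 in the windows at 80% or more in the MEFs. Of the chosen windows 17.8% held 10 or more, against 8.78%. The share of MEF-methylated windows that were chosen rose at each step of cytosine number, from 0.393% with 1 or 2 cytosines to 0.857% with 9 or 10 and 1.93% with 20 or more. The windows were nevertheless mostly CpG-poor, with 30.01% holding 1 or 2 cytosines and 1.58% holding 20 or more. Windows with many cytosines also hold more calls, and the part of depth in this gradient was not tested.

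**Figure D1:**
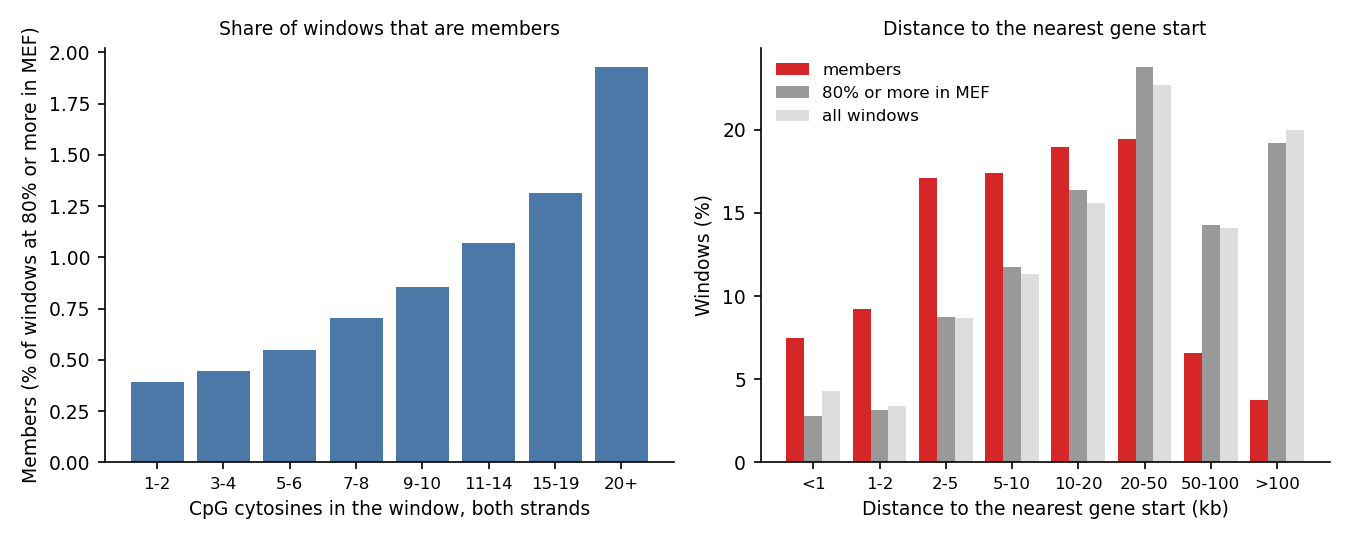
Left, the share (percent) of windows at 80% or more in the MEFs that were chosen, by number of CpG cytosines in the window; right, the share (percent) of windows by distance to the nearest gene start in kb, for chosen windows, windows at 80% or more in the MEFs and all windows. The share on the left rises from 0.393% to 1.93%, and on the right 10.4% of chosen windows lie beyond 50 kb against 33.5% of MEF-methylated windows.

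Of the chosen windows 42.3% stood in runs of adjacent windows. There were 17768 separate stretches: 13761 single windows, 2723 runs of 2, and 1284 runs of 3 or more that held 4655 windows. The next window had a value in 19027 cases and was itself chosen in 6094 of them (32.03%), against 0.322% of all windows. Windows in runs of 3 or more held a median of 6 cytosines.

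Methylation in the ESCs rose gradually with distance from the stretches. In the 200 bp next to a run or single window the mean level was 78.3% in the MEFs, 17.8% in the Gjb2-35delG ESCs and 10.2% in the Actin-RFP ESCs. At 1000 bp the same means were 74.9%, 38.6% and 21.9%, and at 2000 bp 75.6%, 46.5% and 27.7%, still below the 67.6% and 38.5% of all windows. Around runs of 3 or more the ESC levels at 2000 bp were 40.1% and 23.7%, lower than the 47.8% and 28.6% around single windows. The ESC levels thus formed dips wider than the chosen windows. The MEF means outside the chosen windows stayed between 74.9% and 78.3% at these distances, also below the 79.1% of all windows.

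**Figure D2:**
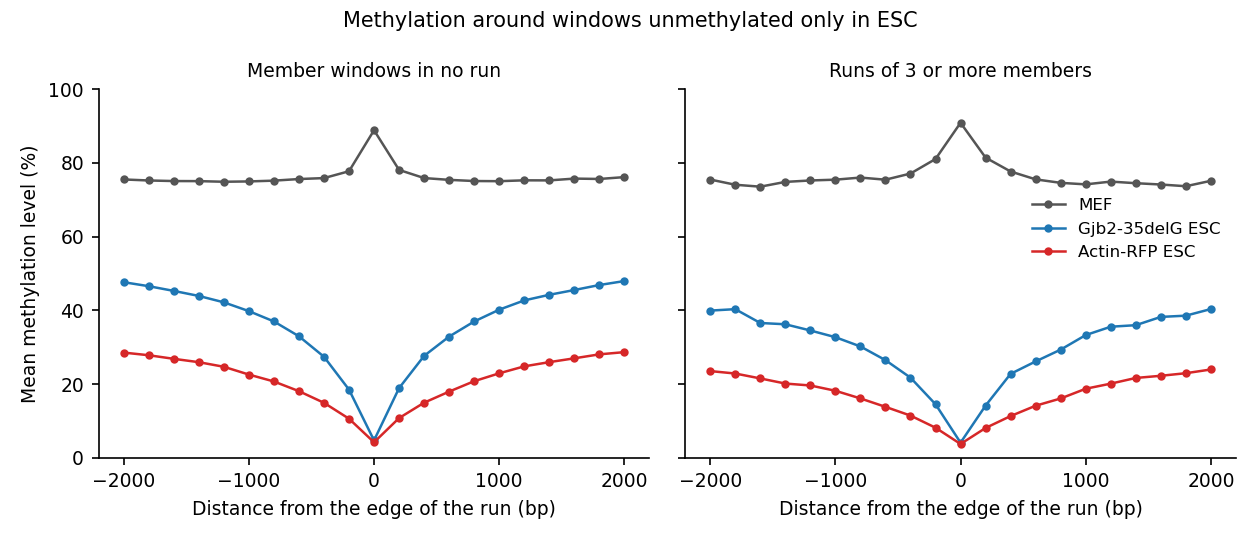
Mean methylation level (percent) in each library against distance (bp) from the edge of the stretch, for single windows (left) and runs of 3 or more windows (right). The ESC lines climb over 2000 bp to 47.8% and 28.6% around single windows and to 40.1% and 23.7% around runs, while the MEF means at that distance are 75.8% and 75.3%.

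The longest run covered 16 windows (chr2:165808401-165811600) with 103 cytosines, within Zmynd8, a chromatin reader gene. Its mean level was 92.9% in the MEFs, 3.40% in the Gjb2-35delG ESCs and 3.04% in the Actin-RFP ESCs, from 843, 874 and 1002 calls. The nearest gene end was that of Eya2, 36674 bp away, whose strand was not known, so either of its ends was used. A run of 13 windows (chr3:129572801-129575400) lay within Elovl6, a fatty acid elongase gene, with 92.7%, 5.68% and 4.22%. These longest runs were intragenic and far from or downstream of gene starts.

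A run of 11 windows (chr11:97665201-97667400) lay in Mllt6, a DOT1L-complex partner gene, 1789 bp from its start, with levels of 93.1%, 2.37% and 3.21%. Platr6 held a run of 10 (chr10:21845401-21847400) with 93.2%, 2.39% and 2.01%, which covers 1 of its 2 annotated starts and the promoter stretch printed above. Another run of 10 (chr17:70829401-70831400) lay outside annotated gene spans, 6988 bp from the nearer end of Gm41610 (strand not known), with 92.8%, 4.34% and 3.02%. Of the 4 runs of 9 windows, the 3 with the most cytosines lay at Klf3 and Gm38457 (chr5:64808801-64810600), outside genes on chromosome 17 (chr17:66481601-66483400) and in Brd1 (chr15:88708001-88709800), and the fourth lay in Baz2b (chr2:60049401-60051200) with 90.1%, 2.82% and 3.17%. In the Brd1 run, the gene of a histone acetyltransferase scaffold, levels were 93.6%, 2.28% and 2.23%. The densest of the 12 longest was a run of 8 windows with 122 cytosines in Zfp553 (chr7:127235401-127237000), at 96.7% in the MEFs and 3.83% in the Actin-RFP ESCs.

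**Figure D3:**
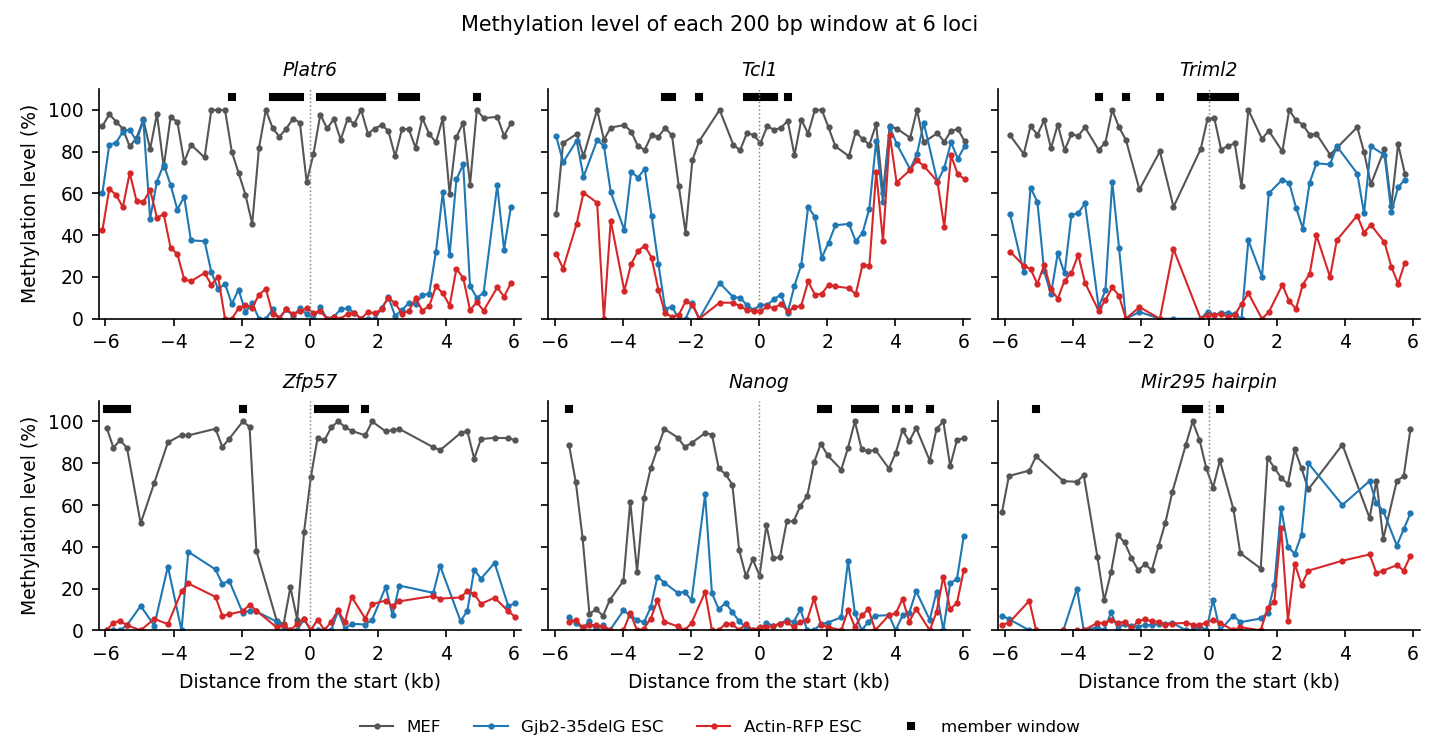
Methylation level (percent) of each 200 bp window within 6 kb of the start of Platr6, Tcl1, Triml2, Zfp57, Nanog and the Mir295 hairpin, against distance (kb), in the 3 libraries; black squares mark the chosen (member) windows. Around Tcl1 the other 43 windows averaged 85.0%, 53.5% and 33.2% in MEFs, Gjb2-35delG and Actin-RFP ESCs, whereas around Nanog they averaged 63.2%, 11.1% and 5.74%.

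The loci differed in how far the surroundings shared the pattern. Within 6 kb of the Platr6 start the 39 windows that were not chosen averaged 85.4% in the MEFs, 40.6% in the Gjb2-35delG ESCs and 23.7% in the Actin-RFP ESCs, so the unmethylated stretch was bounded. Around the Nanog start (chr6, position 122707565) 10 of 53 windows were chosen, and the other 43 averaged 63.2%, 11.1% and 5.74%. Fgf4, which encodes a growth factor secreted by the epiblast, had 10 chosen windows and 33 others at 43.1%, 8.02% and 5.36%. At Nanog 28 of these 43 windows were below 80% in the MEFs and 18 were above 10% in an ESC line, whereas at Tcl1 the counts were 8 and 40 of 43.

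The chosen windows lay closer to genes than MEF-methylated windows did, yet mostly not at starts. A window from 1000 bp upstream to 500 bp downstream of a gene start with known strand held 912 of them (3.82%), against 1.25% of windows at 80% or more in the MEFs and 2.28% of all windows. Another 65.7% lay elsewhere within a gene span (54.5% of MEF-methylated windows) and 30.4% outside any gene (44.2%). The start share depended on the width taken: within 500 bp it was 2.28% against 0.780%, and from 2000 bp upstream to 1000 bp downstream 8.42% against 2.76%. The median distance to the nearest start (either end, where the strand was not known) was 9.52 kb against 26.4 kb. Within 10 kb lay 51.2% against 26.4%. The reference table gave no exons, so exonic, intronic and UTR positions were not separated. Shares per chromosome ran from 0.257% on chromosome 3 to 0.471% on chromosome 11.

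Start windows among the chosen were CpG-poor compared with starts in general. RefSeq promoters (250 bases before to 50 after the start) that overlapped a chosen window numbered 190, of 180 genes, and held a median of 5 CpGs against 7 in all 31396 promoters and 3 in the 9614 that overlapped a MEF-methylated window. An observed-to-expected CpG ratio over 0.6, a usual mark of CpG islands, was found in 8.42% of the 190, in 36.4% of all promoters and in 3.46% of those overlapping MEF-methylated windows. In CpG content the 190 thus lay between MEF-methylated promoters and promoters in general.

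Short motifs of factors known in ESCs were counted in these 300-base promoters on both strands. The octamer ATGCAAAT, read by OCT4, was in 3.16% of the 190 (6 promoters), 2.11% of MEF-methylated and 1.75% of all promoters. ACAAAG or ACAATG, core motifs of SOX factors, were in 41.6%, 37.2% and 28.1%. AAGGTCA, read by ESRRB, was in 8.95%, 6.54% and 4.69%. GGGTGTG, read by KLF factors, was in 13.2% (25 promoters), 7.37% and 8.001%. TGANTCA, the AP-1 motif, was in 6.32%, 10.5% and 7.84%, the E-box CACGTG in 6.84%, 4.92% and 7.14%, and CCAAT in 39.5%, 38.4% and 37.3%. The octamer, SOX, ESRRB, KLF and CCAAT letters were thus each in a larger share of the 190 than of both backgrounds, AP-1 in a smaller one and the E-box in between. These are counts of letters in few promoters, given with no test, and a match does not show binding.

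A chosen window lay within 10 kb of a start (of either end, where the strand was not known) of 4494 of 20665 protein-coding autosomal genes (21.7%), and within the start window of 419 of 16457 with known strand (2.55%). Of 16 core pluripotency genes 13 had one, all but Sox2, Lin28a and Esrrb. Of 18 genes of naive pluripotency 15 had one, all but Prdm14, Nr5a2 and Lifr. Among housekeeping genes, listed as a control, 8 of 11 also had one, so a high share was not particular to the pluripotency lists. The lists of trophectoderm genes (3 of 14), fibroblast genes (3 of 16), formative genes (3 of 12), primitive endoderm genes (1 of 12), germline genes (1 of 20) and maternally methylated imprinted genes (1 of 13) stood near or below 21.7%. Epithelial and adhesion genes had 8 of 16 and the DNA methylation machinery 7 of 13. At the start window itself the counts were 3 of 10 for core genes, 2 of 13 for naive genes, 2 of 12 for the methylation machinery, 1 of 10 for epithelial genes and 1 of 19 for germline genes, against 2.55%. The other lists, housekeeping genes (0 of 8) among them, had none there.

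The core genes differed in how many windows they had. Dppa5a, a KH-domain gene expressed in early embryos, had 31 windows within 10 kb, counted from both ends, with mean levels of 90.2% in the MEFs, 4.30% in the Gjb2-35delG ESCs and 2.29% in the Actin-RFP ESCs. L1td1, an RNA-binding protein derived from a retrotransposon, had 13. Nanog, a homeodomain factor of the network, had 12 at 88.3%, 4.71% and 4.05%. Fgf4 had 11 at 88.3%, 1.65% and 2.38%. Its window chr7:144857401-144857600, at -3886 bp from its start, had 97.8%, 0% and 1.56% from 40, 32 and 61 calls, where 0 of 32 allows up to 9.38%. Pou5f1, which encodes OCT4, had 7 (88.1%, 2.89% and 4.998%) and Sall4, a zinc finger factor, 9, of which 8 formed 1 run. Gdf3, a growth factor of the TGF-beta family, had 7, and Dppa2 and Dppa4, a pair of chromatin-binding partners, had 10 and 9. Utf1 had 1 window of 2 cytosines. The strand was known for 7 of the 13 genes, and of these Pou5f1, Fgf4 and L1td1 had a window in the start window, while Nanog, Utf1, Tdgf1 and Trim71 had none. At Pou5f1 that window (chr17:35508801-35509000) lay at the downstream one of 2 annotated starts and had 88.7%, 0% and 10% from 29, 13 and 19 calls. The level in the Actin-RFP ESCs thus lay at the limit of the rule, and 0 of 13 allows up to 23.1% in the Gjb2-35delG ESCs. At Fgf4 the window at the start (chr7:144860201-144860400) had 82.2%, 0% and 0% from 47, 6 and 20 calls. There 0 methylated calls allow up to 50% in the Gjb2-35delG and 15% in the Actin-RFP ESCs.

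Among naive genes Tet1, a dioxygenase that oxidises methylcytosine, had 18 windows at 88.0%, 3.97% and 3.21%. Zfp42 (REX1) had 10, Tcl1 9, Tfcp2l1 7, and the KLF factors Klf2 and Klf5 6 each. Tcl1 was the clearest case at a promoter, with 5 of its windows in the start window. The one across the Tcl1 start (chr12:105222601-105222800, 22 cytosines) had 84.1%, 6.74% and 3.54% from 169, 88 and 158 calls, and belongs to the sequence printed above. Dnmt3l, the co-factor of the de novo methyltransferases, had 5 windows, 4 of them in the start window, at 89.8%, 2.30% and 6.04%. Zfp57, which protects methylation at imprints, had 21 at 92.0%, 2.701% and 4.33%. Trim28, the co-repressor that ZFP57 recruits, had 4. Of the rest of the machinery, Dnmt3a, Dnmt3b, Uhrf1, Tet3, Tdg and Setdb1 had none within 10 kb.

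Genes were also ranked by the number of chosen windows for which they had the nearest start. The highest were Ssr2 (33 windows, a translocon component), Septin1 (32, a cytoskeletal GTPase), Mybl2 (29, a cell cycle transcription factor), Ubxn2a (28) and the predicted gene Gm30363 (28). Next came Dppa5a (25), Mllt6 and Arl14epl (22 each), and Rest (the repressor of neuronal genes), Platr6 and Gcnt2 (20 each). At Rest the levels were 93.0%, 4.67% and 3.56%, and at Mybl2 92.3%, 3.23% and 3.03%. For Ssr2, Septin1, Dppa5a, Arl14epl and Rest the strand was not known, so windows near either end of the gene were counted and none was assigned to the start. Among the genes with a known strand, Platr6 had 15 of its 20 windows in the start window, Gm30363 5, Ubxn2a 2, Mybl2 and Gcnt2 1 each and Mllt6 none.

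Genes near chosen windows were more often expressed in the ESC-derived cells. Among 13250 autosomal genes with expression values, 50.3% had 10 CPM or more in the summed RFP cells. Of the 3003 listed genes that were nearest to a chosen window within 10 kb, 69.4% did. The share rose with the number of windows, from 63.8% of genes with 1 to 68.5% with 2, 73.7% with 3 or 4 and 81.3% with 5 or more. Host-derived GFP cells showed the same order, with 50.1% of all genes, 60.2% of genes with 1 window and 74.2% with 5 or more. The higher share was therefore not restricted to the RFP cells.

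The RFP cells exceeded the GFP cells more often near the chosen windows. Of all listed genes 24.8% were at least 2-fold higher in RFP cells (log2 ratio of CPM + 1 of 1 or more) and 22.2% at least 2-fold lower. Near chosen windows 30.1% were higher and 17.5% lower, and with 5 or more windows 35.6% were higher and 14.7% lower. With a chosen window at the start itself 36.4% of 346 genes were higher and 16.2% lower. Genes whose nearest chosen window lay beyond 10 kb stood close to all genes, with 26.7% higher and 22.7% lower. The median log2 ratio was 0.34 within 10 kb, 0.50 at the start and 0.08 over all genes. The shares shrank on other scales: with 10 CPM added in place of 1, 17.7% near chosen windows and 11.2% of all genes were higher, and by the mean of log2(CPM + 1) over cells 14.5% and 8.35%. Epiblast markers differed between the colours in the same direction (2432 CPM against 68.8), and their part in these shares was not tested.

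**Figure D4:**
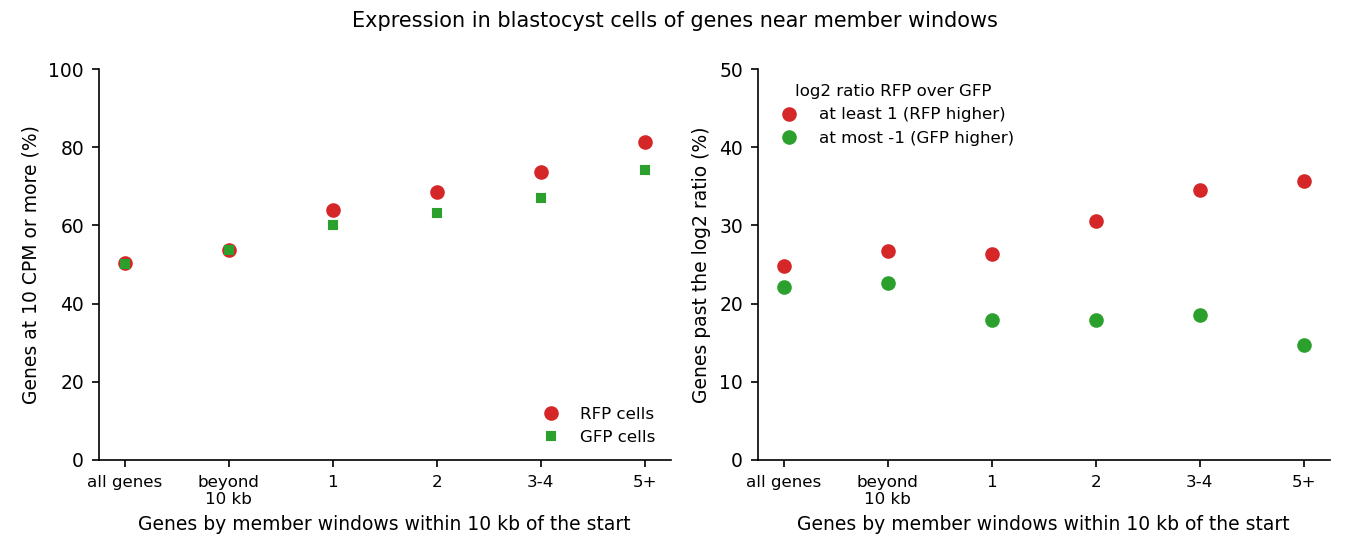
Left, the share (percent) of genes at 10 CPM or more in the summed RFP cells and GFP cells, for all genes, genes whose nearest chosen window is beyond 10 kb, and genes with 1, 2, 3 or 4, and 5 or more windows within 10 kb; right, the share with a log2 RFP to GFP ratio of at least 1 or at most -1. The RFP share on the left climbs from 63.8% to 81.3% with window number, and the share higher in RFP cells from 26.3% to 35.6%.

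The core pluripotency genes with chosen windows were all at 10 CPM or more in RFP cells, and 8 of the 13 were at least 2-fold higher there and none 2-fold lower, where 50.3% of all genes reached 10 CPM and 24.8% were at least 2-fold higher. The 3 core genes without a chosen window, Sox2, Lin28a and Esrrb, were also all at 10 CPM or more and all at least 2-fold higher, with a median log2 ratio of 2.91 against 1.23 for the 13. Tdgf1 had 1388 CPM in the summed RFP cells (lowest cell 0, median 1092, highest 4807) and 2.32 CPM in GFP cells (0, 0.617 and 80.03), a log2 ratio of 8.71. The colours overlapped only at their extremes, since 52 of 55 RFP cells and 1 of 40 GFP cells reached 10 CPM. Fgf4 had 516 CPM (0, 258 and 2977) against 3.57 CPM (0, 0.253 and 312), a ratio of 6.82. Dppa5a was high in both colours, at 7126 CPM (100, 6144 and 21242) and 4943 CPM (2734, 4738 and 8518), although it had the most windows of the list. Nanog was low in both, with 19.13 CPM in RFP cells and 26.8 in GFP cells. Reads of Tdgf1 and Dppa5a may be shared with processed copies of these genes, and no source used here says how such reads were assigned.

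The other core genes followed in the same direction or differed little. Utf1, a chromatin-bound repressor, had 326 CPM in RFP and 6.62 CPM in GFP cells (log2 ratio 5.42), Gdf3 110 and 2.59 CPM (4.95) and Trim71, an RNA-binding ubiquitin ligase, 151 and 18.1 CPM (2.99). Pou5f1 had 49.6 and 14.997 CPM (1.66), Dppa4 648 and 275 CPM (1.23) and Sall4 629 and 306 CPM (1.04). L1td1 had 212 and 114 CPM (0.90) and Dppa2 223 and 407 CPM (-0.87), short of the 2-fold limit. The ratio did not follow the number of windows, as Utf1 with 1 window and Dppa5a with 31 show.

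Of the 15 naive genes with chosen windows, 4 were at least 2-fold higher and 6 at least 2-fold lower in RFP cells. Over all genes 24.8% were that much higher and 22.2% that much lower. Tet1 was higher, at 474 CPM (0, 424 and 1439) against 54.2 CPM (0, 49.3 and 362). Tfcp2l1 was lower, at 22.8 CPM (0, 0 and 511) against 335 CPM (0.747, 297 and 1053), as was Tet2 at 9.68 CPM (0, 0 and 188) against 163 CPM (0, 120 and 648). Dppa3, which protects the maternal genome of the zygote from TET oxidation, had 1 window and was lower in RFP cells, at 165 CPM against 4750 CPM. Klf2 was higher in RFP cells (64.5 against 4.99 CPM), while Klf4 (1.65 against 22.8) and Klf5 (86.7 against 433) were lower. Zfp42 differed little, at 355 CPM (0, 233 and 2295) and 387 CPM (0.633, 325 and 924). Tcl1, with 5 windows at its start, was near the detection limit in both colours, at 3.34 CPM and 2.43 CPM, with 2 RFP cells and 1 GFP cell at 10 CPM or more. An unmethylated start in cultured ESCs thus stood beside little RNA in the blastocyst cells measured here. Of the 7 genes of the methylation machinery with chosen windows, 4 were at least 2-fold higher in RFP cells and 2 at least 2-fold lower. Of the 6 without one, 3 were that much higher and 1 that much lower. The median log2 ratio was 1.37 with chosen windows and 1.40 without. Among the 7, Dnmt1, the maintenance methyltransferase, had 83.1 against 23.1 CPM, Trim28 382 against 147 CPM and Dnmt3l 162 against 100.7 CPM.

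**Figure D5:**
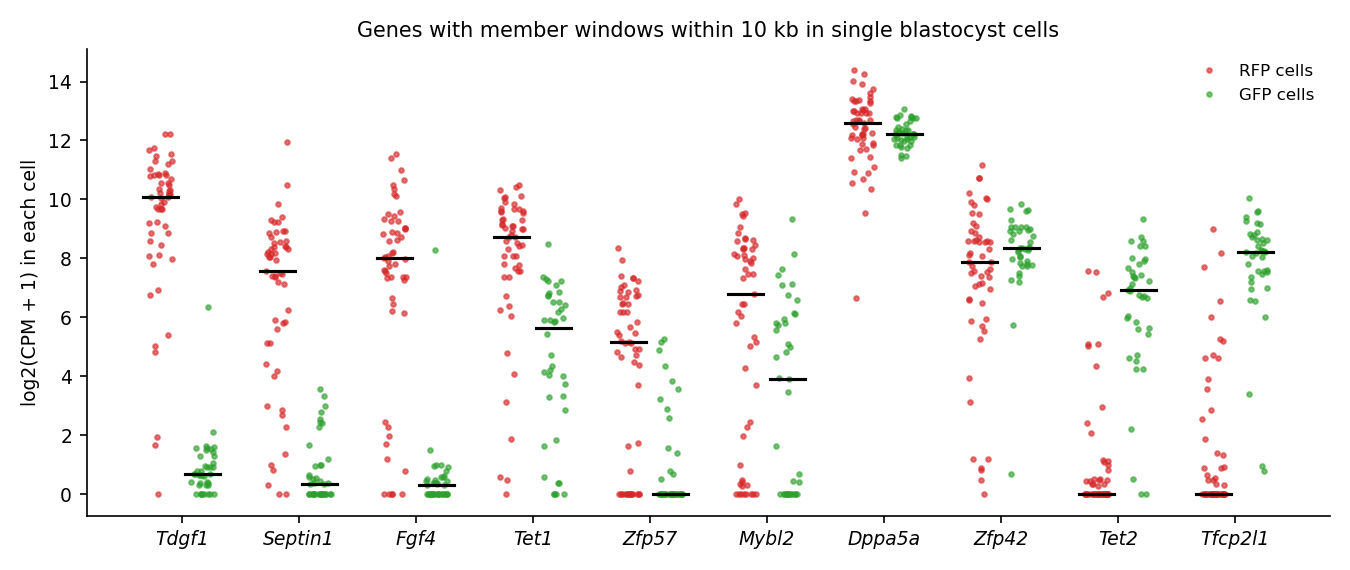
Expression as log2(CPM + 1) in each RFP cell (55) and GFP cell (40) for 10 genes near chosen windows, each point a cell and the bar the median. Tdgf1, Septin1 and Fgf4 are higher in most RFP cells, with medians of 1092, 188 and 258 CPM in RFP cells and under 1 CPM in GFP cells, whereas Tet2 and Tfcp2l1 run the other way.

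The genes with the most windows did not move together. Septin1 had 282 CPM in RFP cells (0, 188 and 3998) against 1.297 CPM in GFP cells (0, 0.294 and 10.9), a log2 ratio of 6.95. Mybl2 had 197 CPM (0, 110 and 1035) against 47.99 CPM (0, 14.2 and 650), Rest 465 CPM (0.417, 363 and 4075) against 114 CPM (0, 78.4 and 947), and Zfp57 63.8 CPM (0, 34.9 and 328) against 3.93 CPM (0, 0 and 37.8). Those ran higher in RFP cells with wide overlap of single cells, apart from Septin1. In the other direction Mllt6 had 4.68 CPM against 24.4 and Arl14epl 7.64 against 49.98, log2 ratios of -2.16 and -2.56. Ubxn2a differed little, at 123 CPM and 140 CPM. Platr6 and Gm30363 were not listed in the expression table. Of the genes that hold the longest runs, Zmynd8 (341 against 108 CPM) and Klf3 (109 against 29.8) were higher in RFP cells, and Elovl6 (90.1 against 264) and Brd1 (48.1 against 128) lower.

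Among genes with a chosen window at the start, 257 with a standard name reached 10 CPM in at least one colour, of which 96 (37.4%) had a log2 ratio of 1 or more and 40 (15.6%) of -1 or less. Among all 7733 genes with a standard name at that level the shares were 26% and 23.3%. The highest ratios were those of Ldhb, a lactate dehydrogenase subunit, at 7.92 (1992 against 7.20 CPM), Fgf4, Spp1 (osteopontin) at 6.70 (3792 against 35.6 CPM), Hmces at 6.62, Lrrc2 at 6.60 and Zscan10 at 6.24. The Spp1 windows (chr5:104434401-104434800) had 88.0%, 3.69% and 4.35%. At Lrrc2 the 4 windows (chr9:110951201-110952000) had 88.9%, 3.35% and 5.39%, and they are also the 4 windows counted for Tdgf1, 5043 bp from its start. The single Zscan10 window held 1 cytosine.

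The lowest ratios at starts were those of Cmtm7 at -5.76 (5.11 against 329 CPM), Gjb5, a connexin of the trophectoderm lineage, at -5.13, Plet1, a placenta-expressed gene, at -4.90 (9.24 against 305 CPM), Tor1aip1 at -4.12, Whamm at -3.65 and Rbm47 at -3.34. The Plet1 windows (chr9:50494001-50495000, 3 windows with 28 cytosines) had 86.6% in the MEFs, 6.87% in the Gjb2-35delG ESCs and 2.56% in the Actin-RFP ESCs. Trophectoderm markers were lower in the RFP cells as a list (168 against 7829 CPM summed), beside which these ratios stand. Chosen windows thus occurred at starts of genes with more RNA in either colour.

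Genes of other lineages ran in both directions. All 3 formative genes with chosen windows were at least 2-fold higher in RFP cells, as were all 9 without. All 3 trophectoderm genes with chosen windows were at least 2-fold lower, as were 9 of the 10 measured without. Of the fibroblast genes measured, 2 of 2 with chosen windows and 0 of 3 without were that much higher. Over all genes 24.8% were that much higher and 22.2% that much lower. Fn1, the fibronectin gene and a fibroblast marker, had 11 chosen windows at 90.5%, 3.43% and 2.32%, although it was listed for the cells in which those windows were methylated. In the blastocyst cells Fn1 had 97.3 CPM in RFP and 5.55 CPM in GFP cells. Cldn4, a tight junction gene, had 9 windows at 90.4%, 1.27% and 2.77%, with 58.6 CPM in RFP and 457 CPM in GFP cells. Elf3, an epithelial and trophectoderm factor, had 4 windows and 0.524 CPM against 277 CPM. Etv5, a formative gene, had 3 windows and 194 CPM against 1.89 CPM.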

How the data were processed

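Whole-genome bisulfite libraries of cultured cells and single-cell RNA-seq of blastocyst cells were used, with coordinates on mm10 (GRCm38), per the submitters' processing notes. These notes also name fastp 0.20.0, STAR 2.7.3a and featureCounts 2.0.0 among the tools; for the bisulfite reads, aligner and caller are not stated in these sources. For every 200 bp window the authors deposited the methylation level as a fraction (the mean over its CpG cytosines), the counts of methylated and unmethylated calls, and the number of cytosines, each with at least 5 calls. Levels are printed as percent. The deposited expression signal was gene read counts divided by 1 factor per cell; all values (100.0%) were whole multiples of the step of their cell within 0.01 reads. The reads recovered were summed over the cells of a colour and given as CPM, with log2 ratios on CPM + 1 and no test.

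The members, gene lists and named genes were chosen with earlier results of these data known. Named genes were those at the 8 longest runs, the 12 genes with most windows, up to 8 listed genes per list, and the 6 highest and 6 lowest expression ratios among genes with a window at the start. Tdgf1, Utf1, Dppa3, Klf4, the microRNA clusters, the Zfp553 and Baz2b runs and the promoter sequences were added after their values were seen. Gene starts came from RefSeq promoters (GRCm38.p6); genes without an entry there, 7606 in all, had no strand, and both of their ends were used for nearest starts but not for the start window. Sequence of distal windows was not used here; GC content and motifs were therefore counted in RefSeq promoters in place of the windows. Computation used Python 3.11.15, numpy 2.4.6, pandas 2.3.3 and scipy 1.17.1, and the counting steps were tested on simulated data. Alternatives varied the limits of the rule, coverage, start window and expression scale.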

Additional observations from a re-analysis of the deposited data

How the results depend on the processing

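Of 31 alternatives, 22 moved a value and 9 did not, where a count counts as moved beyond 1.5 times and a share or median beyond its 95% counting interval. The number of chosen windows, 23862, became 11117 with at least 90% in the MEFs, 34352 with at least 70% (within 1.5 times), 8650 with at most 5% in the ESCs, 58677 with at most 20%, 15064 with at least 20 calls in each library and 11123 with at least 3 CpGs; each follows from the narrower or wider limit. Pooled calls in place of the deposited level gave 24109 windows, 22097 of them in common. The median of 4 cytosines became 6 with at least 20 calls, as it did in the MEF-methylated windows. The share in runs, 42.3%, was 52.9% with 1 other window allowed between and 39.1% with at least 20 calls. The share at gene starts, 3.82%, was 2.28% within 500 bp, 8.42% from 2000 bp upstream to 1000 bp downstream, 4.86% with at least 3 CpGs, 4.29% and 3.43% with at most 5% and 20% in the ESCs, and 4.26% with at least 20 calls. It was 6.21% (MEF-methylated windows 2.39%) with both ends of genes of unknown strand, an alternative chosen after seeing the data. In each of these 7 settings the share at gene starts was above that of the MEF-methylated windows under the same setting (0.780% to 2.76%).

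The share of nearby genes higher in RFP cells, 30.1%, was 17.7% with CPM + 10, 14.5% by the mean over cells and 36.4% at starts only, against 11.2%, 8.35% and 24.8% of all genes. The share at 10 CPM or more, 69.4%, was 89.0% at 1 CPM (all genes 75.7%), 64.4% at any distance and 73.7% at starts only (both 50.3%) and, chosen after seeing the data, 71.3% with stranded starts only (51.3%). For changes not set by the limit itself the cause was not tested. No paired analysis was possible because each kind of cell had 1 library and no result came from a test. Depth limits single windows: at a median of 36 to 41 calls the upper limit of the ESC level was 19.9%.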
